A study of Rattus norvegicus with 6 samples.

Results

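Caveolae are small flask-shaped pits of the plasma membrane, and the 7 genes described here encode their core parts: the caveolins Cav1, Cav2 and Cav3, the cavins Cavin1 (listed under its older symbol Ptrf), Cavin2 (Sdpr) and Cavin3 (Prkcdbp), and the membrane ATPase Ehd2. Array rows whose annotation gives exactly 1 symbol equal to one of these names were taken, and all 7 genes were found among 14324 named genes. Day 1 cultures were aortic rings of male Fisher 344 rats aged 1 to 2 months kept for 1 day in collagen gel under serum-free EBM medium. They were set against day 0 rings, freshly cut from rats of the same strain, sex and age range. Each group held 3 arrays, each of RNA pooled from 4 to 6 rings or cultures, and the labels do not say whether pools shared animals. P-values therefore measure the spread between these pools, and the number of arrays limits the precision.

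Caveolins are inserted into the inner leaflet as hairpins and cluster with cholesterol, and cavins bind from the cytosol as a coat that gives the pit its shape. EHD2 sits at the neck and restrains the pit at the cell surface. Caveolae are dense in smooth muscle, endothelium, adipocytes and fibroblasts, where they flatten under membrane tension and gather ion channels and signalling enzymes. CAV3 is the caveolin of striated muscle and is also found in some smooth muscle.

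Expression is given as the deposited log2 array value, in which a difference of 1 is a 2-fold difference. Array medians over all rows lay between 5.87 and 5.95. Changes are day 1 minus day 0, with the standard error after the sign ± unless SD is written, and adjusted p comes from limma with Benjamini-Hochberg adjustment over all 14324 genes, called below 0.05. Levels of different genes are not compared, since each gene has its own probes. The vessel wall was sampled whole, so fewer cells of a type and less RNA per cell cannot be told apart.

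All 7 caveolae genes fell in the day 1 cultures, and 6 of them fell at least 2-fold. Over all genes, 27.6% rose and 20.7% fell past the threshold and 4.11% did so by at least 2-fold. In each of the 7 genes every day 1 array lay below every day 0 array, an arrangement found in 25.5% of all genes. The median change of the 7 genes was -1.33, against -0.01 over all genes. The linear array values of the 7 genes, summed, were 5119 to 6040 in day 1 cultures and 13410 to 13570 in day 0 rings. Such sums, here and for the lists below, are weighted towards genes with high array values. Among the 7 genes Cav1 weighs most, at 12.60 on average in day 0 rings.

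Because these genes fell together, the 250 bases before the transcription start are shown for the largest fall, Cavin2, and for the neighbouring pair Cav1 and Cav2, from RefSeq promoters of rat assembly GRCr8. Capitals mark matches, on either strand, to the CArG box bound by SRF (searched under its usual consensus), the M-CAT element CATTCC, the GC box GGGCGG, the TATA box TATAAA, the CCAAT box CCAAT or the AP-1 site TGANTCA. The Cavin2 window is chr9:57806025-57806274 on the minus strand, the Cav1 window is chr4:46606288-46606537 on the plus strand, and the Cav2 window is chr4:46582431-46582680 on the plus strand.
Cavin2: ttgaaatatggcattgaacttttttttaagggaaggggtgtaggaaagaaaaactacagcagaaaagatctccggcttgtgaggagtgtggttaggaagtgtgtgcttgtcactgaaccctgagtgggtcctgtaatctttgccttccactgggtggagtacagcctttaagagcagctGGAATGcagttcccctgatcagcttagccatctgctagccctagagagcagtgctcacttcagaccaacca
Cav1: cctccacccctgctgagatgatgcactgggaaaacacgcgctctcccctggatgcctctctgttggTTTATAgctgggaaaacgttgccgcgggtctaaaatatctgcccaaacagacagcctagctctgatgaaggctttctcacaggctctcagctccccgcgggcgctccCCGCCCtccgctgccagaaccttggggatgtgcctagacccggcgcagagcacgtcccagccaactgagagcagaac
Cav2: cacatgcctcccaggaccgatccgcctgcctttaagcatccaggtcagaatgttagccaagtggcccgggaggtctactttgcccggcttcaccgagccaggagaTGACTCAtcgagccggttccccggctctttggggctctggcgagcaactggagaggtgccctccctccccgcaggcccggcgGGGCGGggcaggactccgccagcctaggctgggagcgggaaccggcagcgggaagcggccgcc

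RefSeq windows were at hand for 6 of the 7 genes, 7 windows in all, because Cav1 has 2 annotated starts. The CArG box letters occurred in 0 of the 7 windows and in 1.5% of all 33469 promoter windows. The M-CAT letters stood in Cavin2, from base -71 relative to the start, and in Cav3, against 12.1% of all windows. A GC box stood in 4 of the 7 windows, those of Cav2, Cavin1, Ehd2 and the upstream start of Cav1, against 30.5% of all windows. An AP-1 site was found in Cav2 only among these windows, against 6.3% of all. The TATA box letters stood only in the upstream window of Cav1, on the opposite strand from base -184, against 12.9% of all windows. A CCAAT box stood in Cav3, Cavin1 and Ehd2, against 34.0% of all windows. The E-box CANNTG, which is not capitalised, stood in all 3 printed windows and in 65.5% of all windows. None of the capitalised motifs was common to all 3, although Cav1 and Cav2 both had a GC box.

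CAV1 is the main structural caveolin outside striated muscle and is needed there for caveolae to form. Cav1 measured 11.40, 11.39 and 11.04 in day 1 cultures, against 12.61, 12.58 and 12.62 in day 0 rings. The day 0 arrays lay within 0.04 of each other, while the third day 1 array stood below the other two. Cav1 fell by 1.33 ± 0.10 (adjusted p = 1.95e-05), a 2.51-fold lower level, and the change was -1.21 without day 1 replicate 3.

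CAV2 forms mixed oligomers with CAV1 and depends on it to reach the surface. Cav2 measured 8.84, 8.83 and 8.60 in day 1 cultures, against 10.65, 10.61 and 10.60 in day 0 rings. The groups were far apart, and day 1 replicate 3 was again the lowest array. Cav2 fell by 1.86 ± 0.08 (adjusted p = 8.85e-07), a 3.64-fold lower level. The array carries Cav2 on 2 rows with identical values, which were counted once.

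Cav3 measured 5.72, 5.35 and 5.05 in day 1 cultures, against 6.73, 6.32 and 6.24 in day 0 rings. These values straddle the array medians, and the spread within groups was the widest of the 7 genes, with SDs of 0.34 in day 1 cultures and 0.26 in day 0 rings. The groups still did not overlap. Cav3 fell by 1.06 ± 0.19 (adjusted p = 0.00191; 95% interval of the change -1.49 to -0.63).

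**Figure D1:**
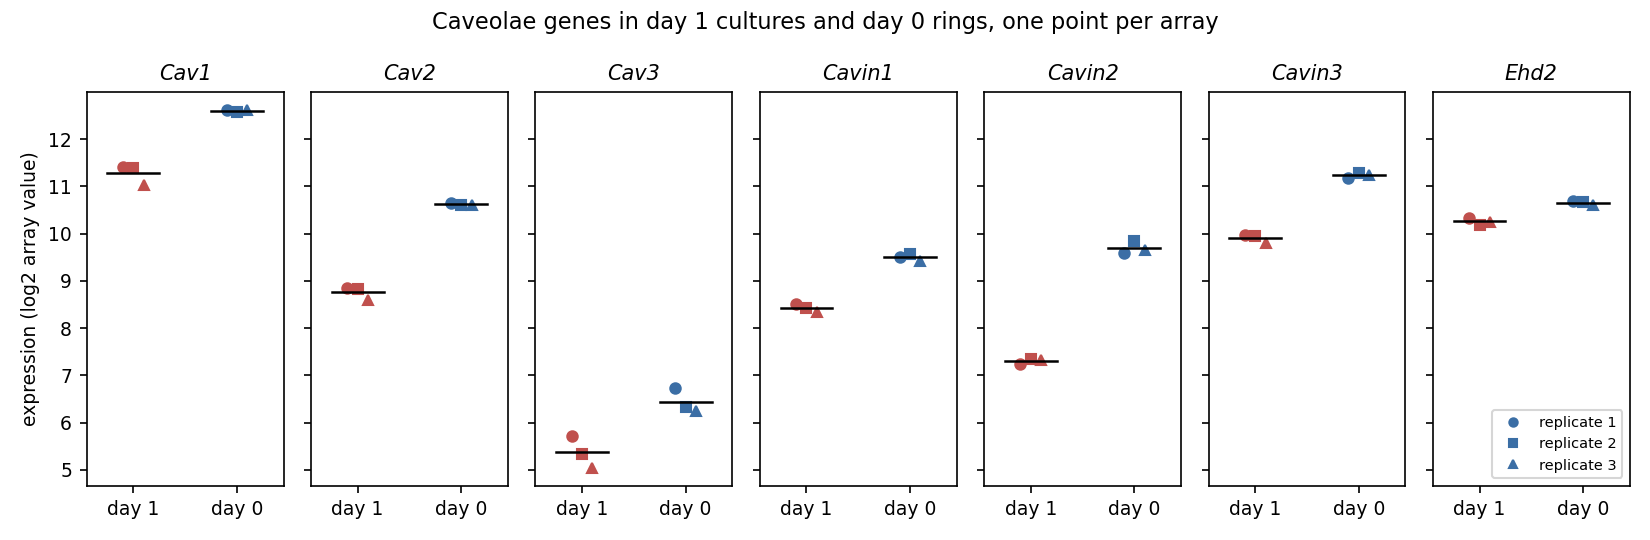
Log2 array values (vertical axis) of the 7 caveolae genes in day 1 cultures (red, left of each panel) and day 0 rings (blue, right), with 1 point per array, the marker giving the replicate number and the bar the mean of 3 arrays. In every panel the 3 day 1 points lie below the 3 day 0 points; Cavin2 has the widest gap and Ehd2 the narrowest.

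CAVIN1 is the cavin without which caveolae are not built, and it recruits the other cavins. Cavin1 measured 8.52, 8.42 and 8.34 in day 1 cultures, against 9.50, 9.57 and 9.42 in day 0 rings. The replicates of each group were tight and about 1 log2 unit apart between groups. Cavin1 fell by 1.07 ± 0.07 (adjusted p = 1.05e-05), a 2.10-fold lower level.

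CAVIN2 binds phosphatidylserine and promotes membrane curvature. Cavin2 measured 7.25, 7.35 and 7.32 in day 1 cultures, against 9.60, 9.85 and 9.66 in day 0 rings. It had the largest change of the 7 genes: it fell by 2.40 ± 0.08 (adjusted p = 2.88e-07), leaving 19.0% of the day 0 level. Of all genes, 0.6% had a more negative change.

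CAVIN3 links caveolae to protein kinase C delta, which it was first found to bind. Cavin3 measured 9.97, 9.94 and 9.80 in day 1 cultures, against 11.17, 11.28 and 11.25 in day 0 rings. Its change was almost the same size as that of Cav1, and it fell by 1.33 ± 0.07 (adjusted p = 2.63e-06). The fourth member of the cavin family, Cavin4 of striated muscle, measured 3.77, 3.86 and 4.03 in day 1 cultures and 3.98, 3.85 and 3.84 in day 0 rings, and the groups overlapped (adjusted p = 0.982). These values lie under the array medians of 5.87 to 5.95, and whether they hold signal over background cannot be read. The sign of the Cavin4 change turned with quantile normalization (0.08, adjusted p = 0.55) and with median centring (0.05, adjusted p = 0.708).

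Ehd2 had the smallest change. It measured 10.34, 10.19 and 10.25 in day 1 cultures, against 10.68, 10.66 and 10.61 in day 0 rings. The groups were narrowly separated, with no overlap. Ehd2 fell by 0.40 ± 0.06 (adjusted p = 0.00129), leaving 76.0% of the day 0 level, and 12.5% of all genes had a more negative change.

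**Figure D2:**
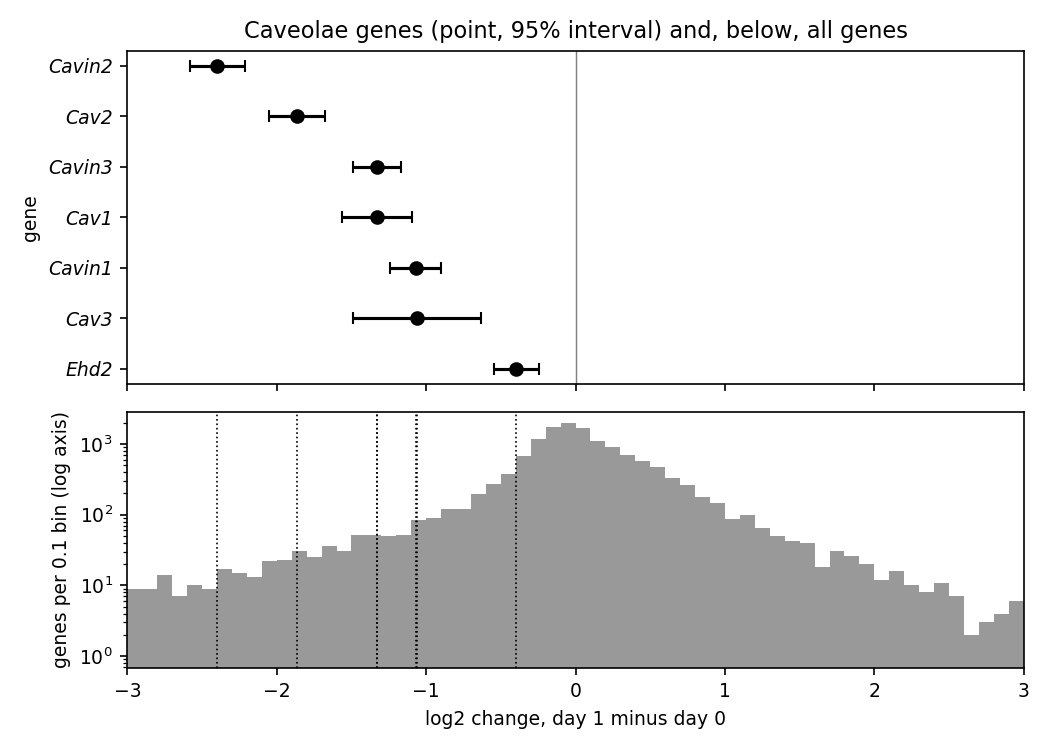
Upper panel, change of each caveolae gene on the log2 scale (horizontal axis, day 1 minus day 0) with its 95% interval from limma. Lower panel, the number of genes per bin of change over all genes on a log axis, cropped at -3 and 3, with dotted lines at the 7 caveolae genes, which run from -2.40 for Cavin2 to -0.40 for Ehd2.

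Whether the genes fell by the same amount was asked by subtracting the Cav1 value of the same array from every gene and fitting the differences with limma. Relative to Cav1, Cavin2 fell by a further 1.07 ± 0.16 (adjusted p = 8.93e-12) and Cav2 by a further 0.54 ± 0.16 (adjusted p = 6.09e-04). Ehd2 moved up relative to Cav1 by 0.93 ± 0.16 (adjusted p = 2.92e-09), so its fall was the smaller one. Cavin3 differed from Cav1 by -0.003 ± 0.16 (adjusted p = 0.984; 95% interval -0.31 to 0.30). Cavin1 differed by 0.26 ± 0.16 (adjusted p = 0.103; 95% interval -0.05 to 0.56), and Cav3 by 0.26 ± 0.16 (adjusted p = 0.0917; 95% interval -0.04 to 0.57).

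Thus 3 of 6 caveolae genes changed unlike Cav1, where 97.8% of all genes did; 2 of the 6 fell further than Cav1, where 1.79% of all genes did. All these differences share the deviations of Cav1, which makes the pooled error too uniform. Without moderation, limma gave an adjusted p of 0.00318 for Cavin2, 8.34e-04 for Cav2 and 0.00250 for Ehd2, and the other differences missed the threshold. An exact two-sided permutation test of 3 against 3 arrays gave 0.1 for Cavin2, Cav2, Ehd2 and Cavin1, the smallest value it can give. With quantile normalization Cav3 (0.50, adjusted p = 0.00107) and Cavin1 (0.34, adjusted p = 0.0258) passed as well, and Cav3 also passed without day 0 replicate 1 (0.41, adjusted p = 0.0308).

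**Figure D3:**
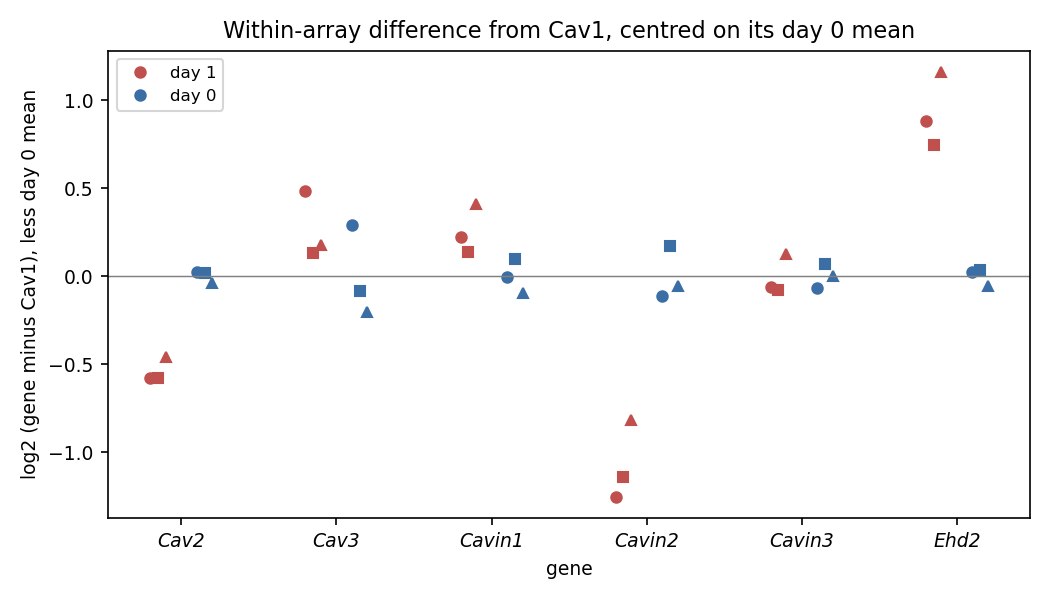
Log2 value of each gene minus that of Cav1 on the same array, with the day 0 mean set to 0 (vertical axis), for day 1 cultures (red, left) and day 0 rings (blue, right), 3 arrays each with the marker giving the replicate number. Cavin2 and Cav2 lie below the day 0 points in all 3 day 1 arrays, Ehd2 lies above, and the Cavin3 points overlap.

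Genes of other proteins that act at caveolae went both ways. Over all genes 27.6% rose and 20.7% fell, shares to be read beside the counts of this list and of those below. Of 13 such partner genes listed, 11 were measured, of which 5 rose, 2 fell and 4 did not pass, with a median change of 0.25. Those that fell were Flna, the actin crosslinker filamin A that tethers caveolae to stress fibres (-1.78 ± 0.06, adjusted p = 2.30e-07), and Ehd4, a relative of EHD2 (-0.77 ± 0.08, adjusted p = 1.10e-04). Flna measured 11.32, 11.30 and 11.28 in day 1 cultures and 13.11, 13.04 and 13.08 in day 0 rings, so the groups were widely separated. The membrane-bending gene Pacsin2 overlapped between groups (0.01 ± 0.07, adjusted p = 0.914), and with quantile normalization its sign turned (-0.09, adjusted p = 0.357). Ror1, a receptor that binds cavin-1 and caveolin-1, rose by 0.78 ± 0.06 (adjusted p = 1.78e-05), the ATPase gene Vcp rose by 0.53 ± 0.05, and the fission GTPase gene Dnm2 rose by 0.34 ± 0.06 (adjusted p = 0.00178). All 11 measured genes differed from the change of Cav1 in the fit of differences, a share to be read beside the 97.8% of all genes that did.

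Genes of other membrane domains and uptake routes went both ways. Among 7 measured flotillin and raft genes 5 rose and 2 fell, with a median of 0.26. Flot1 and Flot2, which scaffold rafts without caveolin, were at 0.30 ± 0.08 (adjusted p = 0.0197) and 0.46 ± 0.07 (adjusted p = 0.00122). With quantile normalization 2 of the 7 rose, and Flot1 missed the threshold (adjusted p = 0.0780). The GPI-anchored protein gene Thy1 was at -1.80 ± 0.12 and the annexin gene Anxa6 at -1.54 ± 0.06, both past the threshold. Another annexin gene, Anxa2, had the largest rise of the list, 0.67 ± 0.06 (adjusted p = 5.30e-05), and also passed with quantile normalization (0.46, adjusted p = 6.65e-04).

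In the clathrin route, 10 of 19 measured genes rose, 4 fell and 5 did not pass, with a median of 0.19. Dnm2 is counted both here and among the other caveola proteins above. With quantile normalization 8 of the 19 rose. The largest changes were those of Bin1 (0.74 ± 0.10) and Amph (-0.72 ± 0.10), which encode membrane-curving proteins, and of the adaptor subunit genes Ap2a1 (0.72 ± 0.08) and Ap2a2 (0.55 ± 0.06). No gene of the list changed by 2-fold. All 19 differed from Cav1 in the fit of differences, as did 97.8% of all genes.

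Signalling proteins reported in caveolae went both ways: 9 of 21 measured genes rose, 8 fell and 4 did not pass, with a median of 0.15. The plasma membrane calcium pump gene Atp2b4 measured 8.67, 8.56 and 8.58 in day 1 cultures and 11.06, 10.93 and 10.99 in day 0 rings. It fell by 2.39 ± 0.06 (adjusted p = 1.24e-07), past the fall of Cav1. Another calcium pump gene, Atp2b1, rose by 0.79 ± 0.06 (adjusted p = 1.68e-05). The channel gene Trpc1 fell by 0.85 ± 0.06, and the kinase gene Fyn rose by 1.10 ± 0.06. The endothelial nitric oxide synthase gene Nos3, whose product CAV1 binds and inhibits, was at 0.37 ± 0.09 (adjusted p = 0.0125), and with quantile normalization at 0.26 (adjusted p = 0.0536). With quantile normalization 5 of the 21 rose.

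Genes for membrane strength and cell anchoring fell in 7 of 10 cases and rose in 2, with a median of -0.34. With quantile normalization 6 fell, and with median centring 5. Dystrophin (Dmd, -2.38 ± 0.07), the sarcoglycan gene Sgcd (-1.82 ± 0.07) and vinculin (Vcl, -1.72 ± 0.06) fell most, and the stretch-gated channel gene Piezo1 rose by 1.53 ± 0.09. Of the transcription factors for contractile genes, Srf was at -1.38 ± 0.07 and its partner Myocd at -2.82 ± 0.07, the only 2 of 4 such genes measured, and both fell. Myocd also stands among the smooth muscle markers.

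**Figure D4:**
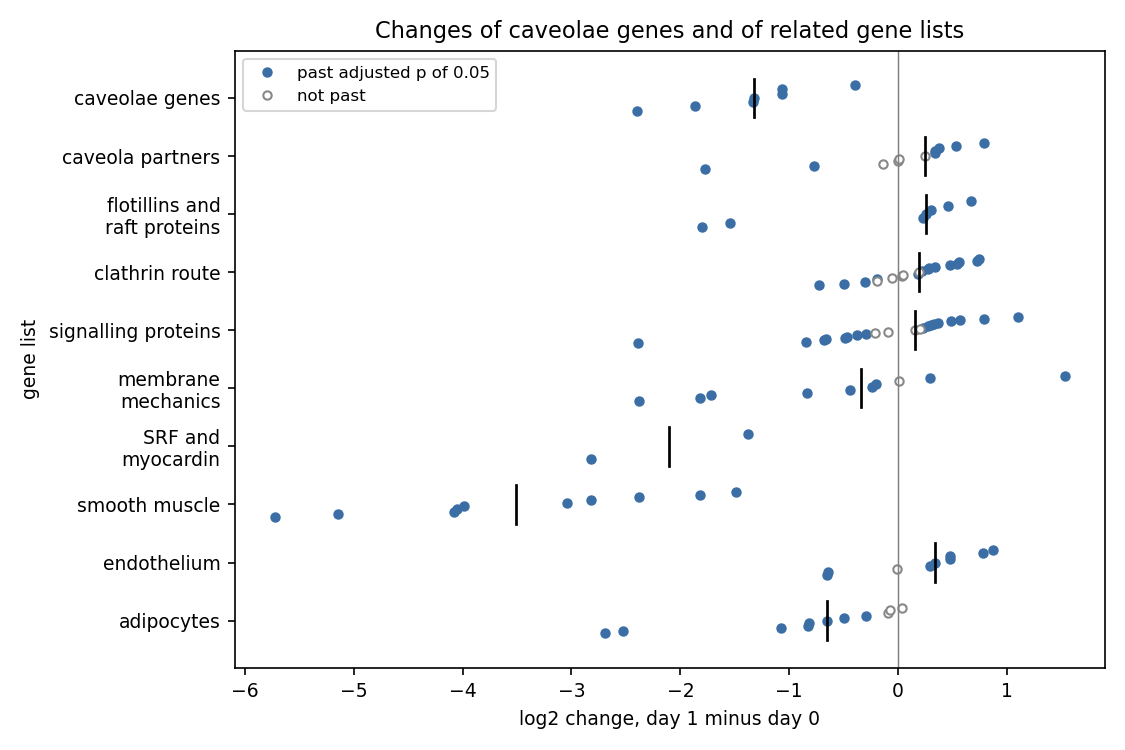
Log2 change (horizontal axis, day 1 minus day 0) of each measured gene of 10 lists, filled where the adjusted p was under 0.05 and open where it was not, with a bar at the list median. The 7 caveolae genes all lie left of 0, as do the smooth muscle genes, whereas partners, raft, clathrin and signalling genes spread to both sides.

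Markers of the cell types that carry caveolae were read beside these results. Over all genes, 27.6% rose and 20.7% fell past the threshold, and 4.11% fell at least 2-fold. All 10 measured smooth muscle markers fell at least 2-fold, and their summed linear level was 3660 to 4135 in day 1 cultures and 39100 to 40630 in day 0 rings, so the labelled tissue was plain in the rings. Cnn1 of that list was at -5.73 and Myh11 at -2.38, both past the fall of Cav1. Of 9 endothelial markers 6 rose and 2 fell, and their summed level was 2808 to 2997 in day 1 cultures and 2570 to 2904 in day 0 rings, with overlap. Adipocyte markers fell in 8 of 11 cases, with sums of 739.7 to 828.3 in day 1 cultures and 1631 to 1790 in day 0 rings. Slc2a4 had the highest array values of the list in day 0 rings (9.31 on average, against 6.79 in day 1 cultures). It weighs most in the day 0 sum. Pparg, Lep and Cfd did not pass. With quantile normalization 7 adipocyte markers fell, with median centring also 7, and without genes under the median mean 3.

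Of 9 fibroblast markers 6 fell and 3 rose, with a median of -0.86. Their sums overlapped, at 21940 to 23430 in day 1 cultures and 20380 to 22100 in day 0 rings. Dcn (0.56) and Lum (0.88), which rose, had the highest array values of the list and weigh most in these sums. The largest fall was that of Col14a1 (-2.11) and the largest rise that of Pdgfra (1.85). Of 10 macrophage markers 3 rose and 3 fell, with sums of 4520 to 4963 in day 1 cultures and 3414 to 3617 in day 0 rings. Cd14, Cd68 and Adgre1 rose, Lyve1, Csf1r and Cd163 fell, and the other 4 did not pass. Cd14 had the highest array values of the list in day 1 cultures (10.74 on average, against 9.12 in day 0 rings). It weighs most in the day 1 sum, which therefore does not stand for the list as a whole. Of 4 brown adipocyte markers 2 fell, with sums of 112.2 to 129.2 in day 1 cultures and 474 to 553.3 in day 0 rings. Striated muscle markers, listed because of Cav3, fell in 7 of 15 cases, with sums of 652.3 to 676.8 in day 1 cultures and 2937 to 3018 in day 0 rings. Acta1 had the highest array values of the list in day 0 rings (10.92 on average, against 6.76 in day 1 cultures). It weighs most in that sum, which therefore does not stand for the list as a whole. The largest changes among them were those of the actin gene Acta1 (-4.16 ± 0.10), the creatine kinase gene Ckm (-2.04 ± 0.10) and the heart myosin gene Myh6 (-1.55 ± 0.10). Myl1, Tnnc2, Myh2 and Myh7 also fell, with log2 changes between -0.76 and -0.17, and the other 8, among them Mb and Tnnt2, did not pass. The call of Myh7 depended on scaling. Its change was -0.08 after quantile normalization (adjusted p = 0.260) and -0.12 after median centring (adjusted p = 0.140). Myh7 averaged 4.85 in day 1 cultures and 5.02 in day 0 rings, under the array medians. With each of these scalings 6 striated muscle markers fell. Over all alternatives the count ran from 2, without genes under the median mean, to 9, without day 0 replicate 1. No marker level can be at 0 on this scale, and the part of any cell type in the caveolae changes was not tested.

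The genes with the most similar profiles over the 6 arrays were found by the root mean square difference of centred log2 values, a measure that here mostly reflects an equal change between the 2 groups. The nearest genes to Cav2 were Csrp1, a LIM protein gene of smooth muscle (0.034), and the junctophilin gene Jph2 (0.037). Those nearest to Cavin2 were Popdc2 (0.079) and the actin-binding gene Nexn (0.090). Cav1 lay nearest to Olfml1 (0.057) and Il17b (0.062), Cavin1 to Glis2 (0.039) and Map3k7cl (0.041), and Cavin3 to Cgref1 (0.025) and Fxyd1 (0.041). For Cav3 the nearest were Naalad2 (0.105) and P2rx5 (0.138), and for Ehd2 Hdac5 (0.023) and Mcrip1 (0.025). Among the 7 genes themselves, Cav1 and Cavin3 were the closest pair (0.077) and Cavin2 and Ehd2 the farthest (1.01).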

How the data were processed

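The authors deposited log2 values for 27342 rows and 6 arrays; that they are log2 was judged from their range. Limma appears in the submitters' processing notes; background treatment, scaling and summarisation: not given in the sources used here. Labelling started from 200 ng of total RNA. The 15097 rows with exactly 1 symbol were named through the platform annotation, updated to GRCr8 names by gene ID (15067 rows) or accession (6), and each gene kept its row of highest mean. Ehd3, which has Ehd2 as an older synonym, was not taken as a member.

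The comparison used limma 3.58.1 under R 4.3.3 (lmFit and eBayes with neither filter nor block, two-sided). Tables came from pandas 2.3.3 and numpy 2.4.6 under Python 3.11.15, and figures from matplotlib 3.10.9. Both fits were run on simulated data with 200 changed genes. In the data 2968 genes fell and 3947 rose, and 14007 differed from Cav1. The simulations are therefore no test of either fit in that setting. Named genes of the report are the 7 members, the 2 nearest profiles of each, and per pathway list up to 4 of the largest called changes plus the largest opposite one (with none called, the top 2). Pacsin2, Cavin4, Dnm2, Flot1, Nos3 and the cell type markers were named for their role, after their values were seen. Members and lists were chosen with earlier results of these data known. Replicate numbers were not taken to pair samples: same-numbered arrays deviated together at correlations of only 0.0106 to 0.0364.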

Additional observations from a re-analysis of the deposited data

How the results depend on the processing

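The fall of each caveolae gene held its direction and stayed past the threshold under every alternative in which it was tested. These were median centring, quantile normalization, array weights, a robust prior with intensity trend, averaged rows, all rows as features, both filters on dim genes, a replicate block, and leaving out each array. Cav3 could not be tested without genes under the median mean, where 6 of 6 remaining genes fell. The lowest and highest changes were -1.52 and -1.21 for Cav1, -1.96 and -1.78 for Cav2, -1.24 and -0.90 for Cav3, -1.18 and -1.02 for Cavin1, -2.49 and -2.32 for Cavin2, -1.48 and -1.28 for Cavin3, and -0.48 and -0.35 for Ehd2. With the replicate block 7 caveolae genes fell, and over all genes 2871 fell and 3815 rose, against 2968 and 3947 without it; arrays did not always correlate best with their own number.

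Relative to Cav1, Cav3 passed with quantile normalization (0.50), as did Cavin1 (0.34). With one array left out Cav3 ranged between 0.15 and 0.41, Cavin1 between 0.18 and 0.32, and Cavin3 between -0.069 and 0.034; Cavin3 also turned sign with quantile normalization (0.042), and none of its values passed; the cause was not tested. The limma fit without moderation, added after seeing the data, changed no call. Over all genes, 1844 fell without genes under the median mean and 4483 with every row as a feature. These settings test another number of features, and the filter also removes dim genes. The counts are therefore not directly comparable with the main fit, and the cause of the difference was not tested. Changes are relative to most other genes: the median change of all genes was -0.01, and 0.04 with median centring. Signal over background cannot be read from the deposited values, which bears most on Cav3.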

Other observations

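Cav2 and Cav1 lie next to each other on chromosome 4 of the GRCr8 assembly, between Tes and Met, and this stretch held changes in both directions. Tes, which encodes a focal adhesion LIM protein, measured 9.79 on average in day 1 cultures and 10.24 in day 0 rings (-0.45 ± 0.07, adjusted p = 8.16e-04 by limma). Met, the gene of the hepatocyte growth factor receptor, averaged 8.42 in day 1 cultures and 6.57 in day 0 rings (1.86 ± 0.12, adjusted p = 8.92e-06). Capza2, beyond Met, was at 0.17 ± 0.06 (adjusted p = 0.0516). The neighbours of Cavin1 on chromosome 10 also rose where it fell: Stat3 on one side was at 1.18 ± 0.07 (adjusted p = 4.71e-06) and Atp6v0a1 on the other at 0.82 ± 0.07 (adjusted p = 3.35e-05). Nop53, next to Ehd2 on chromosome 1, rose by 0.96 ± 0.06 (adjusted p = 4.84e-06). On chromosome 4, Lmcd1, a LIM protein gene near Cav3, fell by 1.50 ± 0.06 (adjusted p = 4.29e-07), while Oxtr on its other side was at 0.16 ± 0.11 (adjusted p = 0.254). Near Cavin3 on chromosome 1, changes ran the same way as its own: Smpd1 was at -0.31 ± 0.07 (adjusted p = 0.00875), Apbb1 at -0.73 ± 0.08 (adjusted p = 1.11e-04) and Fhip1b at -0.54 ± 0.08 (adjusted p = 0.00115), while Cckbr was at -0.02 ± 0.11 (adjusted p = 0.882). Near Cavin2 on chromosome 9, Nabp1 rose by 0.58 ± 0.11 (adjusted p = 0.00338) and Tmeff2 by 0.41 ± 0.08 (adjusted p = 0.00298). The other measured genes within 2 protein-coding places of a caveolae gene were Stat5a (0.48) and Rad18 (1.12), which rose, and Tfec (0.19) and Bicra (0.20), which did not pass. The neighbours were listed by position in the assembly, after the values of the 7 genes were known.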
